A study of Mus musculus with 4 samples.

Results

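The levels of 10 cell surface genes were followed in single microglia of mice: 9 inhibitory, paired or sialic acid binding receptors, and Cd52, whose product is a sialylated surface glycopeptide. They were listed by name, with earlier results of these data known, and all 10 were found among the 12800 genes of the deposited table. The cells came from 4 single-cell RNA-seq libraries of male mice aged 12 to 14 months. They were Trem2 -/- on cuprizone, Trem2 +/- on cuprizone, Trem2 +/+ on cuprizone and Trem2 +/+ on control diet, called knockout, heterozygote, wild type on cuprizone and wild type on control diet below. The diet lasted 12 weeks and held 0.2% cuprizone, a copper chelator that damages oligodendrocytes and strips myelin, or none. Live CD11b+ CD45low cells were sorted, 30000 from each hemibrain, and 2 animals were pooled for each library. The gate can pass other myeloid cells, and cells with raised CD45 can fall outside it. The labels do not describe the knockout allele.

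Microglia hold activating and inhibitory receptors in balance. Inhibitory receptors carry a cytoplasmic motif called ITIM, which is phosphorylated when the receptor binds its ligand and recruits phosphatases such as SHP-1 (Ptpn6), SHP-2 (Ptpn11) and SHIP-1 (Inpp5d). Siglecs bind sialic acids on the cell's own glycans, while Trem2 signals through the adaptor DAP12 (Tyrobp) and the kinase Syk, a route that ITIM receptors can dampen. The siglecs here are Siglech, a mouse siglec without an ITIM that pairs with DAP12, Siglece and Cd33 of the CD33-related group, and Cd22, an inhibitory siglec of B cells. Cd72 is a C-type lectin-like ITIM receptor of B cells whose ligand is the semaphorin Sema4d. Pilra is an ITIM receptor for sialylated O-glycans, Sirpa is the receptor for Cd47, and Cd300a binds phospholipids exposed on dying cells. Slamf8 belongs to the SLAM family and restrains the phagocyte oxidase in mouse macrophages. Cd52 encodes a short peptide held in the membrane by a lipid anchor.

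Because Cd72, Slamf8 and Siglech carry the contrasts below, their RefSeq promoter windows (GRCm38.p6) are shown 5′ to 3′, from 250 bases before to 50 bases after the start of the gene. The table held such a window for 8 of the 10 genes, and Sirpa and Cd52 were the genes without one. Capitals mark 4 motifs searched on both strands and picked after the letters had been read: GAGGAAGT (PU.1, an ETS factor), CACGTG (E-box of MiT/TFE factors), TGACTCA (AP-1) and, as the core of the interferon response element, GAAA and GAAA spaced by any 2 bases.

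Cd72: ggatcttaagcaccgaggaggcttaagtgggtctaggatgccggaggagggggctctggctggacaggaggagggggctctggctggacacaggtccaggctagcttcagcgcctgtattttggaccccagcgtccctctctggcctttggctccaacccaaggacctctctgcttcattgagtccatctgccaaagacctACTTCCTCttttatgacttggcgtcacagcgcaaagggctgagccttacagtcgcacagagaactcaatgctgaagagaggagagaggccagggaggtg

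Slamf8: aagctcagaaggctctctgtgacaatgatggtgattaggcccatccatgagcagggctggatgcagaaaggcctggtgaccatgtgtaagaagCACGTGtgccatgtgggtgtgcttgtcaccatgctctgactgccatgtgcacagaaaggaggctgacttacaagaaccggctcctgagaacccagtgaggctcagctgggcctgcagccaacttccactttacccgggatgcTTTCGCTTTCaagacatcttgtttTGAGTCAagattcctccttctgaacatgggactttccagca

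Siglech: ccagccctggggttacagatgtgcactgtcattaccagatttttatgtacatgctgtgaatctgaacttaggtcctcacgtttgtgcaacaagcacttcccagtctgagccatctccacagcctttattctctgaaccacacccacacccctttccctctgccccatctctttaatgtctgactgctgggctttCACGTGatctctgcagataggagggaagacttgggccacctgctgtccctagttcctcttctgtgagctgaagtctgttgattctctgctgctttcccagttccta

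The Cd72 window lies at chr4:43454577-43454876 on the minus strand, and its capitals are the PU.1 motif on the opposite strand, 49 bases before the start. The Slamf8 window lies at chr1:172590519-172590818 on the minus strand. Its first capitals are the E-box 157 bases before the start. The others lie on the opposite strand, the interferon core 15 bases before the start and the AP-1 motif at position 9 after it. The Siglech window lies at chr7:55767934-55768233 on the plus strand and holds the E-box 56 bases before the start. Of the other 5 windows only that of Pilra held 1 of these motifs, the interferon core. Of 32851 mouse promoters of that length, 3.20% held the PU.1 motif, 7.15% the E-box, 5.20% the AP-1 motif and 3.44% the interferon core, so a match describes the letters only. In GENCODE annotation of GRCm38, Cd72 spans chr4:43446462-43454628, Slamf8 chr1:172581758-172590568 and Cd52 chr4:134082448-134095082, all on the minus strand, and Siglech spans chr7:55768178-55778925 on the plus strand. Cd33, Siglece and Cd22 also lie on chromosome 7. Cd72 overlaps Tesk1 on the other strand, and Pilra overlaps Zcwpw1 on the other strand. Cd52 overlaps Crybg2 and Cd22 overlaps Gm29439, also on the other strand, and neither partner was analysed here. How strand was handled in counting is not given in the sources used here, so reads of such partners cannot be told apart.

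The deposited data held 3023 cells in 8 clusters set by the authors. Unique molecular identifiers (UMIs) were summed per library over 6 clusters (01, 02, 04, 05, 06 and 08), 2590 cells in all, and divided by the library's total to give CPM, UMIs per 1000000 UMIs of that library. The pool held 753 knockout cells with 6514310 UMIs, 695 heterozygote cells with 6552603, 663 wild-type cuprizone cells with 6175520 and 479 control cells with 3638474. Median depth was 6061 UMIs per cell in the knockout, 6849 in the heterozygote, 6588 in wild type on cuprizone and 4717 on control diet, and 8 cell barcodes occurred in more than 1 library. All 10 microglia markers were detected in each pooled library, with a summed level of 25151 CPM in the knockout, 23409 CPM in the heterozygote, 23340 CPM in wild type on cuprizone and 28563 CPM on control diet. Neutrophil markers summed to 635 CPM in the knockout and 1745 CPM in the heterozygote, against 47.1 CPM in wild type on cuprizone and 0 on control diet. Of the 8 markers, 8 were detected in the knockout and in the heterozygote, 7 in wild type on cuprizone and 0 on control diet. Trem2 itself stood at 520.1 CPM in the knockout, 1763 in the heterozygote, 2939 in wild type on cuprizone and 3132 on control diet. A 3′ tag outside a deleted stretch does not check a knockout, so these values only show that the label and the Trem2 transcript level go the same way. With 1 library per group, none of the differences has a replicate check. The intervals (95%, exact) cover only the error of counting. A gene was called where its CPM ratio passed 1.5-fold, the interval of the ratio excluded 1 and both libraries together held at least 50 UMIs, which all 10 genes did in each comparison.

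Loss of Trem2 on cuprizone went with less Cd72, Slamf8 and Cd52 RNA, while the siglecs, Pilra, Sirpa and Cd300a were not called. In the knockout, 3 of the 10 genes fell, none rose and 7 were not called. Over all 9189 genes with enough UMIs, 3.86% were called lower and 1.64% higher. The 10 genes were chosen with earlier results known, so no excess over these shares is read, here or in the diet comparison below. The median log2 ratio of knockout to wild type was -0.10 over the 10 genes and -0.00 over all genes.

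Cd72, the lectin-like ITIM receptor, had 81 UMIs (12.4 CPM) in the knockout library, 396 (60.4 CPM) in the heterozygote, 387 (62.7 CPM) in wild type on cuprizone and 55 (15.1 CPM) on control diet. The heterozygote and the wild type on cuprizone were high, and the knockout and the control-diet library were low, with no overlap of the counting intervals between these pairs. Cd72 was 5.04-fold lower in the knockout than in wild type on cuprizone (interval 3.96 to 6.49). Tesk1, its partner on the opposite strand, had a ratio of 1.0 (0.759 to 1.33). The knockout and control values leaned on few cells: 1 knockout cell held 17 of the 81 UMIs, and 1 control cell held 10 of the 55.

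Slamf8, the SLAM family gene, had 9.82 CPM in the knockout, 24.7 in the heterozygote, 33.2 in wild type on cuprizone and 30.0 on control diet. The knockout alone was low, and its interval (7.57 to 12.5 CPM) lay under that of each other library. It was 3.38-fold lower than in wild type on cuprizone (2.54 to 4.55), where 1 cell held 20 of 205 UMIs. Cd52 had 336.5 CPM in the knockout, 853.1 in the heterozygote, 1018 in wild type on cuprizone and 468.3 on control diet. The knockout lay under the control-diet library as well, and the ratio to wild type on cuprizone was 3.03-fold lower (2.88 to 3.18).

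Siglech, Cd33 and Siglece were not called in the knockout. Siglech, the DAP12 partner, had 841.1 CPM in the knockout, 666.6 in the heterozygote, 685.8 in wild type on cuprizone and 919.1 on control diet. Its knockout level lay between the cuprizone wild type and the control, with a ratio of 1.23 to wild type on cuprizone (1.18 to 1.28), under the 1.5-fold limit. Cd33 had 243.0 CPM in the knockout, 210.5 in the heterozygote, 212.0 in wild type on cuprizone and 252.3 on control diet. Its knockout ratio was 1.15 (1.06 to 1.23), under the limit as well. Siglece had 48.2 CPM in the knockout, 51.0 in the heterozygote, 52.1 in wild type on cuprizone and 74.8 on control diet. Its knockout ratio was 0.924 (0.789 to 1.08).

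Cd22, the B-cell siglec, had 14.4 CPM in the knockout, 18.2 in the heterozygote, 20.2 in wild type on cuprizone and 9.89 on control diet. Its knockout ratio of 0.713 (0.540 to 0.939) missed the limit. Without cluster 08 it was 1.66-fold lower and as a mean of per-cell CPM 1.67-fold lower, and both passed the limit. The B-cell markers Cd79b and Jchain, the only 2 of 7 listed that were analysed here, summed to 31.5 CPM in the knockout, 22.6 in the heterozygote, 26.6 in wild type on cuprizone and 210.5 on control diet. Of the 656 Jchain UMIs on control diet, 642 came from 1 cell, which held no Cd22 and no Cd72 UMI.

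For Pilra, Sirpa and Cd300a the interval of the knockout ratio held 1. Pilra had 36.2 CPM in the knockout, 30.7 in the heterozygote, 37.1 in wild type on cuprizone and 42.1 on control diet, with a knockout ratio of 0.977 (0.811 to 1.18). Sirpa, the Cd47 receptor, had 609.0 CPM in the knockout, 597.0 in the heterozygote, 591.7 in wild type on cuprizone and 633.8 on control diet. Its knockout ratio was 1.03 (0.984 to 1.08). Cd300a, the phospholipid receptor, had 127.9 CPM in the knockout, 124.5 in the heterozygote, 136.5 in wild type on cuprizone and 166.6 on control diet. Its knockout ratio was 0.937 (0.850 to 1.03).

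**Figure D1:**
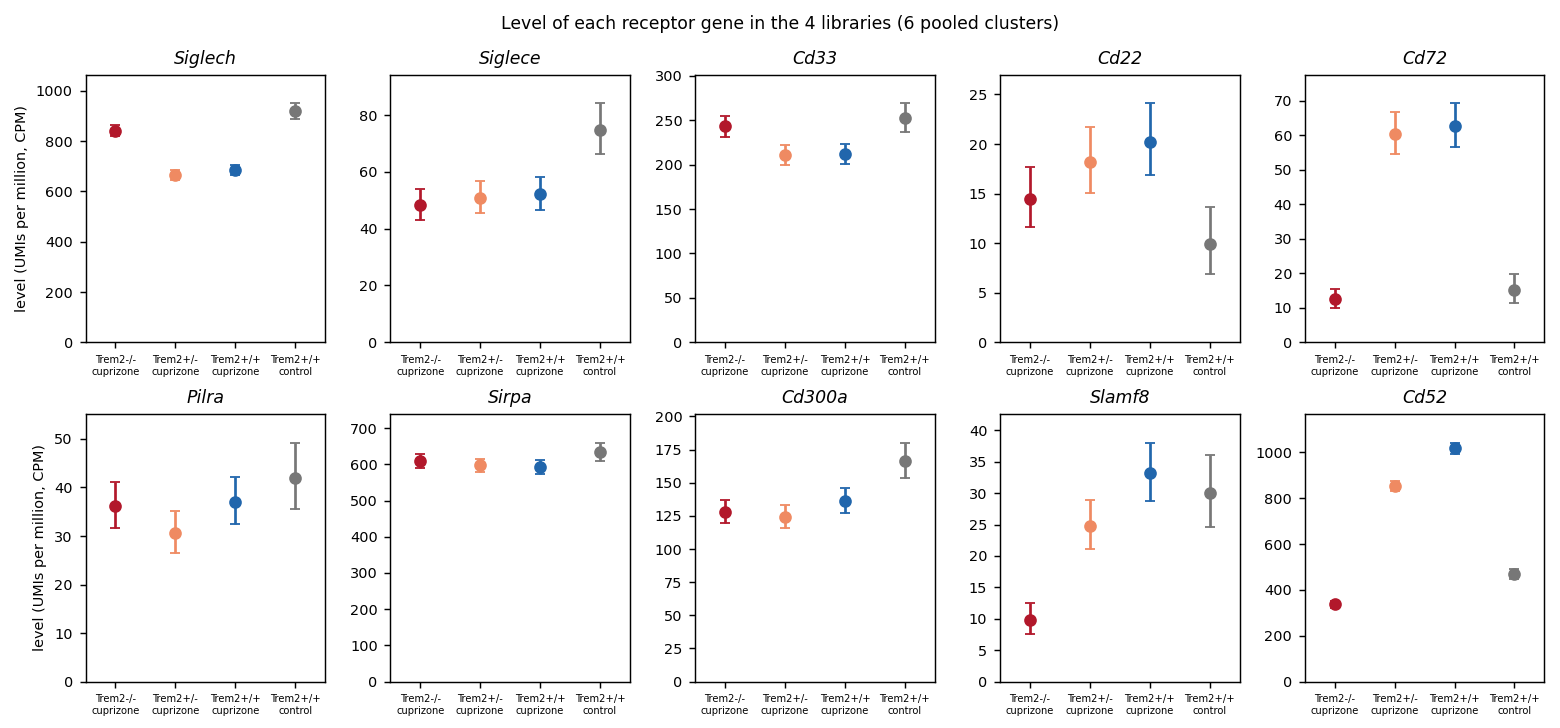
Level of each of the 10 genes in CPM (vertical axis, from 0) in the 4 libraries, with exact Poisson 95% intervals as bars that cover counting error only. Cd72 stands at 12.4 CPM in the knockout and 62.7 CPM in wild type on cuprizone, Slamf8 at 9.82 CPM in the knockout and 33.2 CPM in wild type on cuprizone, and Cd52 at 336.5 CPM in the knockout and 1018 CPM in wild type on cuprizone.

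In the heterozygote, none of the 10 genes was called against wild type on cuprizone in either direction, where 1.17% of 9248 genes were called lower and 1.32% higher. The median log2 ratio was -0.09 over the 10 genes and -0.01 over all genes. Of the 3 genes that fell in the knockout, Cd72 had a heterozygote ratio of 0.964 (0.836 to 1.11). Slamf8 had 0.745 (0.602 to 0.920) and Cd52 0.838 (0.808 to 0.869), both with an interval below 1 and short of the limit. Trem2 in the same library was 0.600 of the wild-type level (0.586 to 0.614). Slamf8 passed the limit as a mean of per-cell CPM (1.5-fold lower). Cd22 had a ratio of 0.897 (0.692 to 1.16) and Pilra 0.827 (0.681 to 1.0). With cells thinned once to an equal depth, Cd22 had 0.426 and Pilra 0.662, past the limit, while the mean of per-cell CPM over cells of that depth gave Cd22 0.826. The ratios of Siglech, Siglece, Cd33, Sirpa and Cd300a lay between 0.912 and 1.01.

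**Figure D2:**
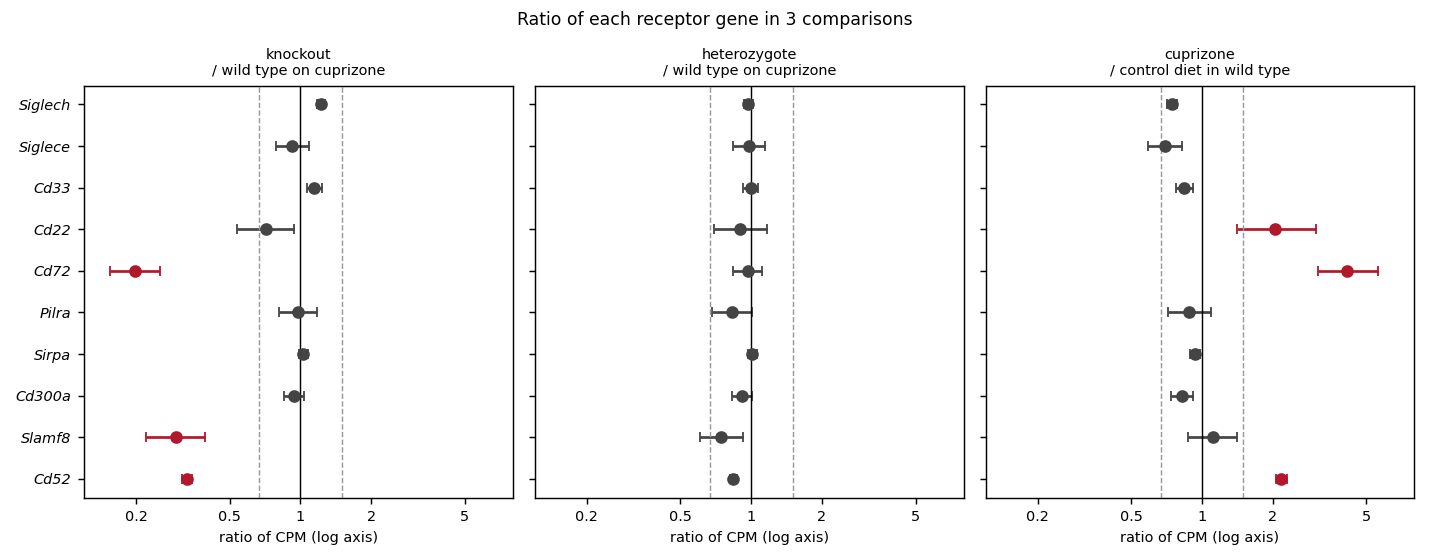
Ratio of CPM on a log axis for each gene in the 3 comparisons, with exact 95% counting intervals. Dashed lines mark 1.5-fold and red points are genes that passed the call rule, 3 lower in the knockout, 0 in the heterozygote and 3 higher on cuprizone.

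In wild-type mice, cuprizone went with more Cd72, Cd52 and Cd22 RNA. These 3 genes rose, none fell and 7 were not called, where 2.59% of 8819 genes were called higher and 4.44% lower. The median log2 ratio of cuprizone to control diet was -0.14 over the 10 genes and -0.11 over all genes. With TMM scaling the median of all genes moved to 0.01 and the calls over all genes to 336 higher and 196 lower, against 228 and 392 here. Cd72 was 4.15-fold higher on cuprizone (3.12 to 5.6), Cd52 2.17-fold higher (2.06 to 2.29) and Cd22 2.05-fold higher (1.40 to 3.05). Cd22 rests on 125 UMIs on cuprizone and 36 on control diet. Slamf8, which fell in the knockout, was not called between the diets, with a ratio of 1.11 (0.874 to 1.41). The wild-type cuprizone library serves both as the reference of the genotype comparisons and as the numerator here, so the values are given side by side only.

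The siglecs other than Cd22 stood lower on cuprizone without passing the limit. Siglece had a ratio of 0.697 (0.592 to 0.823), Siglech 0.746 (0.713 to 0.781) and Cd33 0.840 (0.772 to 0.915). Cd300a had 0.820 (0.737 to 0.911) and Pilra 0.882 (0.716 to 1.09). Sirpa had 0.934, which became 1.01 with TMM scaling. All of these stand beside the shift of the median gene given above. Weighting each cluster by its share of the wild-type cuprizone library moved Siglech to 0.922 and Cd33 to 0.948. Siglece had 0.938 when weighted in this way with the cell richest in it left out on both sides. These weighted values give the 6 control cells of cluster 04 the weight of 18.4% of cells. How much of the lower pooled ratios goes with cluster make-up was not tested.

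The share of cells with a UMI was taken after thinning each cell to 2915 UMIs, the 10th percentile of the pool, which kept 673 of 753 knockout, 644 of 695 heterozygote, 604 of 663 wild-type cuprizone and 410 of 479 control cells. Cd72 was seen in 2.38% of knockout cells, 12.6% of heterozygote cells, 13.2% of wild-type cuprizone cells and 2.44% of control cells. Unthinned, the shares were 7.04% in the knockout, 28.3% in the heterozygote, 26.2% in wild type on cuprizone and 8.35% on control diet. Cluster 03, led by Ttr, Enpp2 and neutrophil genes and lowest in microglia markers, showed Cd72 in 6% of 50 cells (interval 1.25% to 16.5%, median depth 4959.5 UMIs before thinning). Those 3 cells came from the heterozygote (2 of 17 cells) and wild type on cuprizone (1 of 17), while 0 of 12 knockout and 0 of 4 control cells of cluster 03 had a Cd72 UMI. The interval of the 6% holds the Cd72 shares of all 4 pooled libraries, so no share is read as expression or as a difference on its own, and the Cd72 folds rest on summed UMIs.

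Slamf8 was seen in 2.38% of thinned knockout cells, 6.68% of heterozygote, 9.11% of wild-type cuprizone and 8.54% of control cells, against 0 of 50 cells of cluster 03 (upper bound 7.11%). Unthinned, it was seen in 7.70% of knockout, 18% of heterozygote, 22.0% of wild-type cuprizone and 17.5% of control cells. Cd52 was seen in 60.5% of thinned knockout cells, 76.4% of heterozygote, 83.8% of wild-type cuprizone and 66.8% of control cells. Unthinned, it was seen in 78.6% of knockout, 86.0% of heterozygote, 90.5% of wild-type cuprizone and 79.3% of control cells. Cluster 03 had Cd52 in 54.0% of 50 cells, nearest to the knockout share and under that of each pooled library. With so few cells, no difference is read from it.

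Siglech was seen in 88.6% of thinned knockout cells, 78.4% of heterozygote, 81.6% of wild-type cuprizone and 89.8% of control cells, against 32.0% in cluster 03. Sirpa was seen in between 80.2% and 84.0% of thinned cells of the 4 libraries, against 22.0% in cluster 03. Unthinned, Siglech ranged from 90.6% to 95.4% and Sirpa from 93.1% to 96.7% over the libraries. These 2 receptors were thus found in most cells of every library. Cd33 was seen in 50.1% of thinned knockout cells, 42.9% of heterozygote, 41.6% of wild-type cuprizone and 47.8% of control cells, against 16.0% in cluster 03. Cd300a was seen in 29.0% of thinned knockout cells, 28.0% of heterozygote, 35.6% of wild-type cuprizone and 38.0% of control cells, against 16.0% in cluster 03. Siglece (12.6% to 16.6% over the libraries) and Pilra (7.45% to 12.7%) lay near their 12.0% in cluster 03, so their shares alone are not read as expression. Cd22 was seen in 4.61% of thinned knockout cells, 3.11% of heterozygote, 7.28% of wild-type cuprizone and 2.68% of control cells, against 0 of 50 cells in cluster 03 (upper bound 7.11%). Unthinned shares ranged over the libraries from 68.1% to 72.9% for Cd33, 57.0% to 64.7% for Cd300a, 29.2% to 37.8% for Siglece, 22.6% to 26.2% for Pilra and 7.31% to 14.9% for Cd22.

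The authors' clusters showed where the transcripts sat. Cd72, Cd52, Cd22, Siglech and Pilra were among the 4895 genes used to build those clusters, and the other 5 genes were not, so the levels by cluster are a description. Cluster 04 was led by Spp1 (osteopontin), Lpl (lipoprotein lipase) and Lgals3 (a galectin). It held 13 knockout cells (1.73% of the library's pooled cells), 150 heterozygote cells (21.6%), 122 wild-type cuprizone cells (18.4%) and 6 control cells (1.25%). That cluster carried 33.3% of knockout Cd72 UMIs, 57.3% of heterozygote and 57.9% of wild-type cuprizone ones, against 3.64% of control ones. Of all pooled UMIs it held 2.19% in the knockout, 27.2% in the heterozygote, 22.8% in wild type on cuprizone and 1.87% on control diet.

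Within cluster 04, Cd72 reached 127 CPM in the heterozygote and 159 CPM in wild type on cuprizone. The 13 knockout cells gave 189 CPM from 27 UMIs, of which 17 were in 1 cell, and 76.9 CPM without it. Slamf8 had 32.6 CPM in the heterozygote and 52.6 CPM in wild type on cuprizone there. Of the 74 wild-type UMIs behind that value 20 were in 1 cell, and leaving out each library's top cell gave Slamf8 30.7 CPM in the heterozygote and 38.8 CPM in wild type on cuprizone. Cd52 had 1522 CPM there in the heterozygote and 1901 CPM in wild type on cuprizone. Leaving cluster 03 aside, Siglech was lowest in cluster 04 in both libraries, with 372 CPM in the heterozygote and 417 CPM in wild type on cuprizone, against 936 CPM in cluster 05 of the heterozygote and 940 CPM in cluster 06 of wild type on cuprizone. Siglece and Cd33 were also at their lowest there in both of these libraries, Siglece at 23.0 CPM in the heterozygote and 26.3 CPM in wild type on cuprizone, and Cd33 at 136 CPM in the heterozygote and 135 CPM in wild type on cuprizone. Among clusters with at least 20 cells, and again leaving cluster 03 aside, Sirpa and Pilra were lowest in cluster 07, led by MHC class II genes, in each of the 4 libraries. There Sirpa had 459 CPM in the knockout, 450 in the heterozygote, 463 in wild type on cuprizone and 509 on control diet. Pilra had 20.5 CPM there in the knockout, 18.6 in the heterozygote, 17.1 in wild type on cuprizone and 32.3 on control diet.

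**Figure D3:**
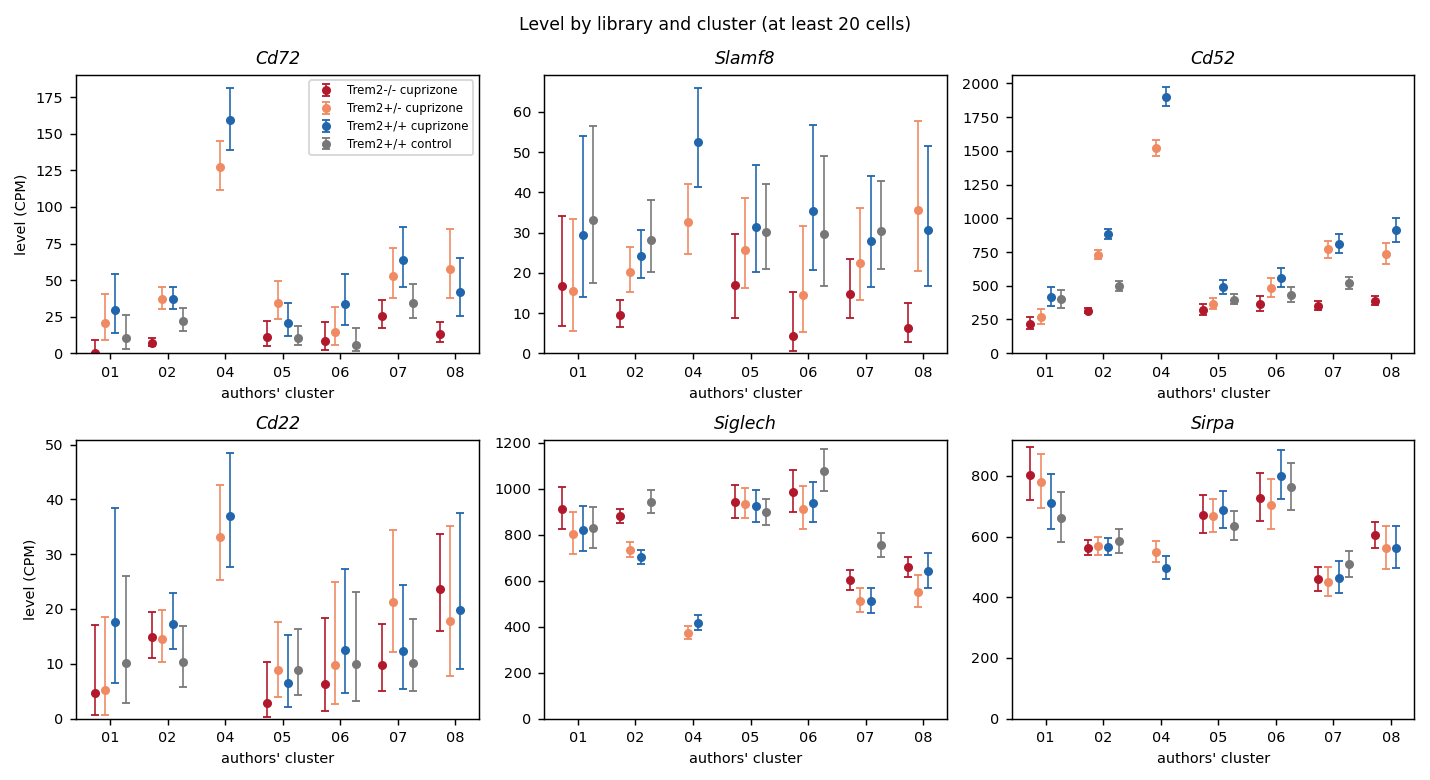
Level in CPM of 6 of the genes by authors' cluster, for libraries with at least 20 cells in the cluster and without cluster 03, with exact Poisson 95% intervals. In wild type on cuprizone, Cd72 and Cd52 peak in cluster 04, at 159 CPM and 1901 CPM, and Siglech is lowest of the clusters shown, at 417 CPM.

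The 3 genes that fell in the knockout were also compared within clusters. The 6 clusters with at least 20 cells in both libraries leave out cluster 04 and take in cluster 07, which lies outside the pool. The knockout ratio was under 1 in 6 of 6 for Cd72, Slamf8 and Cd52. Its interval lay below 1 in 5 clusters for Cd72, 3 for Slamf8 and 6 for Cd52, cluster 07 included for Cd72 and Cd52. Cd52 ratios ran from 0.358 to 0.661. In cluster 01 the knockout had no Cd72 UMI and wild type on cuprizone had 10, and the 0 was set to a floor of 3 UMIs. In cluster 02, the deepest, Cd72 had 25 UMIs (7.14 CPM) in the knockout and 102 (37.4 CPM) in wild type on cuprizone, 5.23-fold lower. Siglech had ratios above 1 in 6 of 6 clusters, with an interval above 1 in 2, clusters 02 and 07.

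Removing cluster 04 left Cd72 4.03-fold lower in the knockout, Cd52 at a ratio of 0.434 and Slamf8 at 0.354. Weighting each cluster by its share of the wild-type cuprizone library gave Cd72 a knockout ratio of 0.738, which ended its call. That value gives the 13 knockout cells of cluster 04 the weight of 18.4% of cells, and without the 1 cell with the most Cd72 UMIs in each library it was 0.375. Neutrophil markers were higher in the knockout and the heterozygote than in wild type. Without the 3 knockout and 10 heterozygote cells richest in them, the same 3 genes were called lower in the knockout, with Cd72 4.98-fold, Slamf8 3.5-fold and Cd52 3.04-fold lower.

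**Figure D4:**
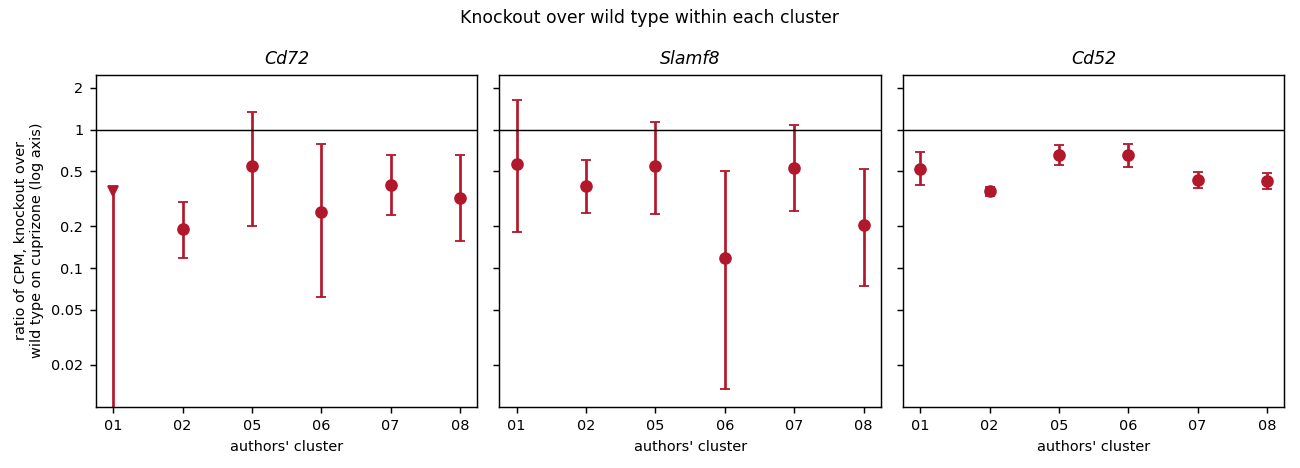
Ratio of CPM, knockout over wild type on cuprizone, in each cluster with at least 20 cells in both libraries, on a log axis with exact 95% counting intervals. Cluster 07, outside the pool, is among them. The triangle in cluster 01 marks the upper bound for Cd72, with 0 UMIs in the knockout, and the Cd52 points lie between 0.358 and 0.661.

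The diet difference was taken within clusters in the same way. Both wild-type libraries filled 5 clusters with at least 20 cells, among them cluster 07, which lies outside the pool. Cuprizone ratios there were above 1 in 5 of 5 for Cd72 and for Cd52. The interval lay above 1 in 3 clusters for Cd72 and 4 for Cd52, cluster 07 included for both. Under the full call rule, both genes were higher in clusters 02 and 07 alone. Cd22 was above 1 in 4 of 5, with an interval above 1 in 0. Siglech was under 1 in 4 of 5, with an interval below 1 in 3, cluster 07 included. Without cluster 04, Cd72 was 2.30-fold, Cd52 1.67-fold and Cd22 1.61-fold higher on cuprizone, and with thinned cells Cd72 was 6.67-fold higher. Weighted by cluster, Cd52 had 1.41, which ended its call. That value gives the 6 control cells of cluster 04 the weight of 18.4% of cells, and 34 of their 86 Cd52 UMIs were in 1 cell. With the cell richest in Cd52 left out on both sides, the weighted ratio kept its call. The heterozygote was compared in 8 clusters, 03 and 07 among them. There Cd52 was under the wild type on cuprizone in 7 of 8, with an interval below 1 in 5. Slamf8 was under it in 6 of 8, with an interval below 1 in cluster 04 alone.

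The 27 library-by-cluster sums with at least 20 cells share libraries and depth, and they take in clusters 03 and 07, outside the pool. Over these sums, Cd72 was most like Itgax (r = 0.88), Cd52 (0.87), Cxcl14 (0.86), Axl (0.85) and Ch25h (0.84). Siglech was most like Sft2d1, Cst3, Crybb1, Arhgap45 and Camk1, each at r = 0.98. Likeness was Pearson's r of log2(CPM + 10) over 7671 genes with at least 200 UMIs. With a pseudocount of 1, 3 of the 5 genes named for Cd72 and 4 of 5 for Siglech were shared. Among the members, Siglech varied with Cd33 (0.94) and Sirpa (0.94), Sirpa with Cd300a (0.92) and Cd72 with Cd22 (0.67), while Cd72 and Siglech had r = -0.28. In cluster 03, Siglech had 214 CPM in the heterozygote and 75.4 CPM in wild type on cuprizone, and Sirpa 151 and 43.1 CPM. Both genes were lower there than in any other sum. Whether these r values hold within microglia alone was not tested.

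Other genes of the same pathways were counted from lists drawn up with earlier results known. A list of other inhibitory or paired receptors and related surface proteins held 27 genes with enough UMIs. Of these 27, 8 fell in the knockout and none rose, where 3.86% of all genes were called lower and 1.64% higher. Their median log2 ratio was -0.23, against -0.00 over all genes. The 8 were Slamf7 (4.64-fold), Lilrb4a (2.46-fold), Lilra5 (2.26-fold), Clec12a (2.11-fold), Siglecf (2.06-fold), Clec2d (1.95-fold), Lilr4b (1.66-fold) and Cd200r1 (1.52-fold). Lilrb4a is an ITIM receptor and Slamf7 a SLAM family member. Vsir and Cd53, the list's genes with the most UMIs, had knockout ratios of 1.11 and 1.09. On cuprizone, 5 of 25 rose in wild type and none fell, where 2.59% of all genes were called higher and 4.44% lower. They were Lilr4b 5.04-fold, Lilrb4a 4.06-fold, Slamf7 3.24-fold, Clec12a 1.90-fold and Siglecf 1.52-fold. The median log2 ratio of the 25 was 0.03, against -0.11 over all genes. In the heterozygote 1 of 27 rose, Clec12a at 1.5-fold, and none fell, where 1.32% of all genes were called higher and 1.17% lower.

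Of 12 ITIM signalling genes, 1 fell in the knockout, the Src family kinase Fgr (4.91-fold lower), where 3.86% of all genes were called lower, and it rose 1.66-fold on cuprizone in wild type. The median log2 ratio of these 12 in the knockout was -0.03. Ptpn6 and Inpp5d, the phosphatases with the most UMIs, had knockout ratios of 0.981 and 1.13. The adaptors Tyrobp and Hcst had 0.973 and 1.09. Of the ligands, Cd47 had 0.997 and Sema4d, the Cd72 ligand, 0.821 (0.727 to 0.928). Of 14 genes that make, transfer or remove sialic acid, 2 fell in the knockout and none rose, beside the same 3.86% of all genes called lower and 1.64% higher. They were St8sia6, a sialyltransferase, 9.33-fold, and Gne, which starts sialic acid synthesis, 1.51-fold. The median log2 ratio of the 14 was -0.06. St8sia6 rose 1.58-fold on cuprizone in wild type. Ctsa and St3gal6, with the most UMIs of that list, had knockout ratios of 1.11 and 1.07. None of the genes in these 4 lists was called in the heterozygote.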

How the data were processed

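The authors deposited a table of counts, the UMIs of each gene in each cell, made with Cell Ranger 2.1.1 on mm10, per the submitters' processing notes. The authors also deposited each cell's library and cluster. Neither the gene annotation nor the clustering parameters were given in the sources used here. From there, UMIs were summed per library over clusters 01, 02, 04, 05, 06 and 08. Clusters 03 (Ttr, neutrophil genes) and 07 (MHC class II, Pf4) were left out after their genes had been seen. CPM has an exact Poisson 95% interval, a ratio an exact conditional binomial one and a share an exact binomial one. These intervals cover counting error only. No test was run, since each group is 1 library. The rule for named genes takes all 10 members, list genes called in at least 1 comparison or with the most UMIs, and the 5 genes most like Cd72 and Siglech. The members, lists, clusters and the 1.5-fold limit were chosen with earlier results of these data known. The ratio script was tested on simulated counts. Doublets were called with Scrublet (in scanpy 1.11.5): 20 of 885 knockout, 0 of 802 heterozygote, 2 of 765 wild-type cuprizone and 0 of 571 control cells, and were left in. In 3 libraries these calls are too few to show that the caller worked. Python 3.11.15, numpy 2.4.6, pandas 2.3.3, scipy 1.17.1, and R 4.3.3 with edgeR 4.0.16 (TMM factors only) were used.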

Additional observations from a re-analysis of the deposited data

Results flagged for a closer look

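Cd52 in the heterozygote relative to wild type on cuprizone went opposite ways in 2 clusters: the ratio was 2.48 in cluster 03 and 0.645 in cluster 01. Cluster 03 held 20 heterozygote and 21 wild-type cells and lies outside the pool. The difference between the clusters was not tested.

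In cluster 07, led by MHC class II genes and Pf4 and outside the pool, Cd52 had 809.2 CPM in wild type on cuprizone and 518.5 CPM on control diet. These cells are outside the pooled sums. In the comparison within clusters the ratio was 1.56 (1.38 to 1.76).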

How the results depend on the processing

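Over 15 alternatives, 437 of 450 ratios of the 10 genes kept their direction and side of the limit, 2 lost a call (Cd72 in the knockout and Cd52 on cuprizone, weighted by cluster), 5 gained one and 6 that were not called crossed 1. Of the 450, at least 70 could not change: both lower limits on UMIs were passed by all 10 genes, and no cell of either wild-type library was rich in neutrophil markers. Leaving out those 70 gives 367 of 380. The 380 still hold ratios that were not called, taken under the stricter 2-fold limit. These could not gain a call or cross 1 there, so 367 of 380 overstates the agreement. No called ratio changed sign. In the heterozygote, the count of genes called lower was 0 and became 1 (Slamf8) as a mean of per-cell CPM and 2 (Cd22 at a ratio of 0.426, Pilra at 0.662) with cells thinned once to 2915 UMIs. The mean of per-cell CPM over cells of that depth, an alternative added after seeing the data, called neither. On cuprizone in wild type, Cd72 was 6.67-fold higher with thinned cells. The alternatives without cluster 04, without cells rich in neutrophil markers and the weighted one without top cells were also added after seeing the data. Counts over all genes moved by more than 1.5 times under some settings. With a 2-fold limit they were 36 higher and 113 lower in the knockout, 42 and 21 in the heterozygote, and 123 and 52 on cuprizone. With no limit on UMIs, 244 were higher in the knockout, and 232 higher and 167 lower in the heterozygote. With thinned cells fewer genes had enough UMIs. Of 6244 genes 189 (3.03%) were lower in the knockout, of 6206 genes 81 (1.31%) were higher in the heterozygote, and of 5684 genes 140 (2.46%) were higher and 253 (4.45%) lower on cuprizone. With every deposited cell, 193 were lower in the heterozygote. Without cluster 04, 142 were higher and 243 lower on cuprizone. With TMM scaling, 63.2% of the calls on cuprizone were higher, against 36.8% without it. No paired analysis was possible because each group is 1 library. No library could be left out for the same reason. Depth limits Cd22, Cd72 and Slamf8, with as few as 36, 55 and 64 UMIs in a library.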
